A study of Mus musculus with 14 samples.

Results

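The 5 libraries from mice fed the Western diet (WD) were compared with the 5 control libraries of batch 2, which makes 10 of the 14 libraries of the series. The members were taken from the library labels, which give each library its diet, batch and number, and every gene of the count table entered the comparison. All animals were wild-type male C57BL/6J mice, bought at 4 weeks of age and then fed either a standard diet or a high-fat, cholesterol-containing WD (product D12079B) for 20 weeks. RNA of the epididymal white adipose tissue (eWAT), a visceral fat pad, was measured by QuantSeq 3′ mRNA sequencing, which reads the ends of transcripts near the poly(A) tail. The study asked which inflammatory genes of eWAT change on the WD. All 5 WD libraries belong to batch 1, so diet and batch cannot be told apart between these 2 groups. The 4 control libraries of batch 1, made from mice on the same standard diet, were therefore used to see whether each difference had the same direction within batch 1.

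Fat pads hold large lipid-filled adipocytes together with macrophages, fibroblast-like progenitors, endothelial cells and other immune cells. In obese fat, macrophages gather around dying adipocytes, take up their lipid and break it down in lysosomes, and such lipid-associated macrophages are known for high Trem2, Gpnmb, Lipa and Cd9. Adipocytes of lean fat take up glucose under insulin, make and store triglyceride, burn branched-chain amino acids in their mitochondria and secrete adiponectin, adipsin and leptin. Because whole tissue was sequenced, fewer cells of a type and less RNA per cell cannot be told apart in any value below.

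Total counts ran from 11116450 to 13274591 in the WD libraries, from 10278970 to 13712254 in the batch 2 controls and from 11163608 to 12334105 in the batch 1 controls. Levels are given as CPM, which are counts scaled to a common library size, after TMM scaling over all 14 libraries. Before TMM scaling, 3 counts correspond to 0.219 to 0.292 CPM. Since 3′ reads without molecular identifiers were counted, this floor covers counting error only. The fat markers Adipoq, Plin1, Lep, Cfd, Fabp4 and Cidec were detected in every library. Of the batch 1 controls, control 1 held transcripts of the epididymis, the tube beside this fat pad, with a summed level of 156465 CPM over 18 epididymis genes, against at most 53.7 CPM in any WD library and 20.9 CPM in any batch 2 control. Control 4 of batch 1 had 7999 genes with a count, against 10903 to 13780 in the WD libraries and 12294 to 13501 in the batch 2 controls. Both are shown throughout, and the direction check is also given without them.

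With edgeR's quasi-likelihood test at a Benjamini-Hochberg adjusted p under 0.05, 474 of 12070 genes tested were called higher in the WD libraries (3.93%) and 299 lower (2.48%), together 773 (6.4%). Of these, 609 differed by at least 2-fold (5.05%), with 409 higher (3.39%) and 200 lower (1.66%). At an unadjusted p under 0.05, 2140 of 12070 genes (17.7%) passed in either direction. The median log2 fold change over all genes tested was 0.00 (-0.00342). TMM scaling brings fold changes close to 0, so this median describes the scaled values only. It was -0.00497 with library totals alone and -0.107 with limma-voom. The 5 WD libraries lay above all 5 batch 2 controls in 391 of the 474 genes called higher, against 4.88% of all genes tested. They lay below them in 262 of the 299 called lower, against 4.03% of all genes tested. The same 10 libraries made the calls, so these counts follow largely from the calling and are descriptions. A fit of all 3 groups at once, in which the wide spread of the batch 1 controls enters the error, called 100 genes higher and 40 lower. In that fit, 10 lipid-associated macrophage, 9 lysosomal, 5 pan-macrophage, 4 complement, 2 Fc receptor and 2 MHC class II genes of the lists below were called higher. For chemokines and the NADPH oxidase it called 0 higher. It called 2 adipocyte identity, 2 branched-chain amino acid, 2 oxidative phosphorylation and 1 tricarboxylic acid cycle genes lower, and 0 of the lipolysis, triglyceride synthesis, de novo lipogenesis, fatty acid oxidation and insulin signalling lists.

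The genes called higher and those called lower behaved differently against the batch 1 controls. Of the 474 genes higher against batch 2, 439 (92.6%) were also higher against batch 1, and their median log2 fold change was 1.77 against batch 2 and 1.01 against batch 1. Of the 294 genes lower against batch 2 that could be tested against batch 1, 225 (76.5%) were also lower there, with medians of -1.20 and -0.35. Over all genes tested, 63.1% had the same sign in both comparisons. The comparisons share the 5 WD libraries, so these shares are descriptions. With control 1, 2, 3 or 4 of batch 1 left out, the share of the genes called higher was 95.1%, 88.2%, 88.0% or 92.0%. For the genes called lower it was 87.1%, 68.4%, 63.6% or 76.9%, so that without control 3 it came close to the share over all genes tested. The WD libraries lay beyond all 9 controls in 97 of the genes called higher, against 1.14% of all genes tested, and in 16 of those called lower, against 0.232%. These 9 include the batch 2 controls on which the genes were called. In the scatter of the fold changes against both control groups, the genes called higher sit mostly above the horizontal zero line, and the genes called lower straddle it.

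**Figure D1:**
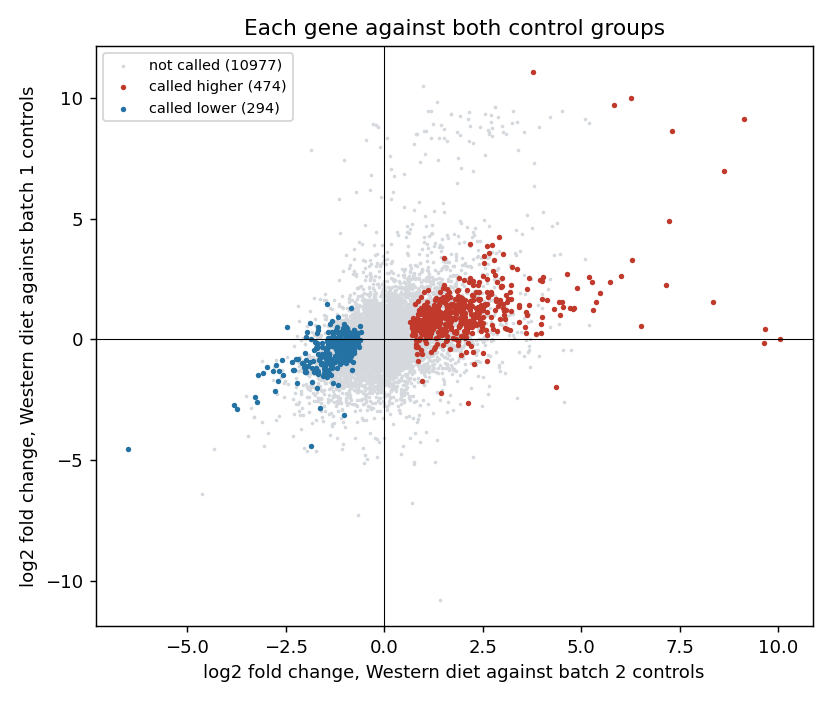
Log2 fold change of each gene in the 5 WD libraries against the 5 batch 2 controls (horizontal axis) and against the 4 batch 1 controls (vertical axis), for genes tested in both. Of the genes called higher (red), 439 of 474 lie above zero on the vertical axis, and of those called lower (blue), 225 of 294 lie below it.

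Tested on its own by edgeR, the WD group against the 4 batch 1 controls gave 0 called genes of 12157, with 628 (5.17%) at an unadjusted p under 0.05, 114 called by DESeq2 and 0 by limma-voom. Without control 4 of batch 1, edgeR called 48. The batch 2 controls against the batch 1 controls, both on the standard diet, gave 0 called genes of 12106, with 895 (7.39%) at an unadjusted p under 0.05, 111 called by DESeq2 and 0 by limma-voom.

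Most macrophage markers were called higher in the WD libraries. For this list and those below, the share over all genes tested was 3.93% called higher and 2.48% lower. Of 14 pan-macrophage markers, 13 were tested and 11 were called higher and 0 lower. Their log2 fold changes had a median of 2.19 against batch 2 and 1.54 against batch 1. Their summed level was 1309 to 2206 CPM in the WD libraries, 221 to 565 CPM in the batch 2 controls and 183 to 1462 CPM in the batch 1 controls. Adgre1, which encodes the macrophage surface protein F4/80, measured 401, 223, 249, 314 and 198 CPM in WD libraries 1 to 5, 56.7, 42.3, 33.1, 40.6 and 40.01 CPM in batch 2 controls 1 to 5 and 15.3, 68.5, 35.4 and 173 CPM in batch 1 controls 1 to 4. All 5 WD libraries lay above all 9 controls, and the log2 fold change against batch 2 was 2.70 ± 0.24 (SE, adjusted p = 7.11e-06). Cd68, a glycoprotein of macrophage lysosomes, measured 258, 166, 232, 452 and 209 CPM in the WD libraries, 22.3, 9.96, 21.8, 37 and 17.4 CPM in the batch 2 controls and 13.7, 112, 23.4 and 341 CPM in the batch 1 controls (log2 fold change 3.60 ± 0.35, adjusted p = 1.26e-05). Here every WD library lay above every batch 2 control, but control 4 of batch 1 was above 4 of the 5 WD libraries. Mpeg1, the phagocyte pore protein perforin-2, had 87.7, 69.6, 112, 260.4 and 85 CPM on the WD and 11.6, 6.09, 11.5, 20.6 and 7.76 CPM in batch 2 (log2 fold change 3.42 ± 0.41, adjusted p = 9.57e-05), and control 4 of batch 1 again stood at 229 CPM. Laptm5, a lysosomal membrane protein of blood cells, ran from 128 to 216 CPM on the WD, above all 9 controls, of which the highest was control 4 of batch 1 at 122 CPM (log2 fold change 1.79 ± 0.24, adjusted p = 0.000222).

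Genes of lipid-associated macrophages had the largest median against batch 2 of the lists with at least 5 members tested, although not against batch 1. Of 18 tested, 14 were called higher and 0 lower. The median was a log2 fold change of 2.45 against batch 2 and 1.33 against batch 1. Their summed level did not separate the groups, at 18221 to 22446 CPM on the WD and 16903 to 19366 CPM in batch 2. Most of it came from Lpl, Apoe and Cd36, named after their values were seen, which adipocytes and other cells also express and which were not called by edgeR. DESeq2 and limma-voom each called 1 gene of this list lower. Lpl had a mean of 6923 CPM on the WD and 9731 CPM in batch 2, Apoe 3773 and 4191 CPM, and Cd36 3087 and 2841 CPM. Gpnmb (chr6:49036518-49058182, mm10), a transmembrane glycoprotein of lipid-laden macrophages, had the lowest adjusted p of all genes. It measured 745, 1262, 588, 939 and 609 CPM in the WD libraries against 15.8, 16, 16, 30.2 and 15.2 CPM in the batch 2 controls, a 44.5-fold difference of the means (log2 fold change 5.48 ± 0.30, adjusted p = 4.9e-08). In the batch 1 controls it measured 129, 44.5, 30.3 and 691 CPM, so that 3 of the 4 lay far below the WD range and control 4 lay inside it. Trem2, a lipid-sensing receptor of these macrophages, followed the same order, with 78.8, 165, 91.2, 131 and 98.4 CPM on the WD, 8.36, 6.96, 1.52, 6.44 and 1.11 CPM in batch 2 and 6.24, 3.47, 6.30 and 143 CPM in batch 1 (log2 fold change 4.53 ± 0.49, adjusted p = 3.38e-05). Atp6v0d2, a subunit of the proton pump that acidifies lysosomes of macrophages and osteoclasts, measured 118, 95.5, 200.2, 236 and 159 CPM on the WD and 5.07, 0, 7.96, 5.91 and 1.21 CPM in batch 2 (log2 fold change 5.30 ± 0.66, adjusted p = 0.000134). In batch 1 it was at 64.1, 26.9, 7.87 and 182 CPM, and again only control 4 reached the WD range. Hpgds, the prostaglandin D2 synthase of immune cells, lay above all 9 controls on the WD, with 93.6, 47.5, 94.1, 118 and 85.9 CPM against at most 8.77 CPM in batch 2 and 28.1 CPM in batch 1 (log2 fold change 4.04 ± 0.63, adjusted p = 0.000845).

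**Figure D2:**
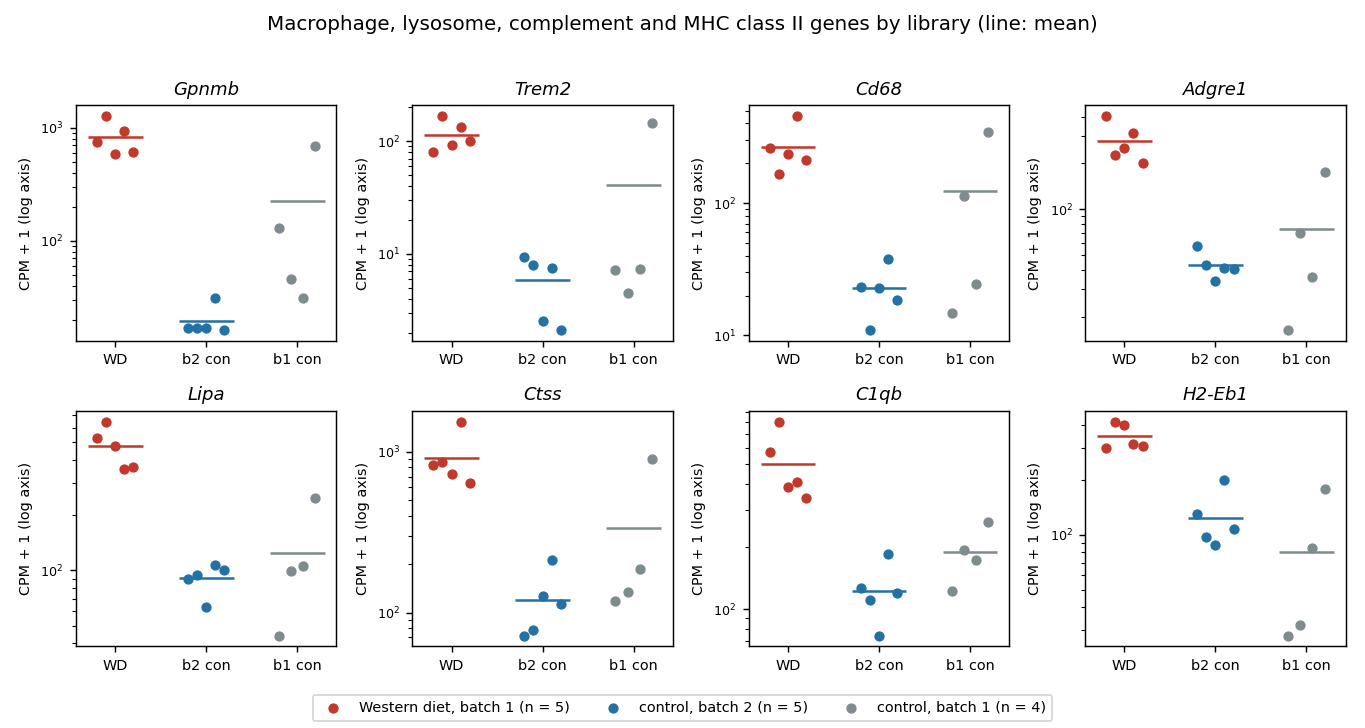
CPM + 1 on a log axis for 8 genes of macrophages, lysosomes, complement and MHC class II, with 1 point per library and a line at the group mean (WD, n = 5; batch 2 controls, n = 5; batch 1 controls, n = 4). All 5 WD libraries lie above all 5 batch 2 controls in each gene, and control 4 of batch 1 lies in the WD range for Gpnmb, Trem2, Cd68 and Ctss.

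Many lysosomal genes were called higher. Of 37 genes for lysosomal enzymes and membrane proteins, all 37 were tested, 19 were called higher and 0 lower, and 36 had a fold change above 0, with medians of 1.10 against batch 2 and 0.77 against batch 1. Their summed level was 13865 to 21482 CPM in the WD libraries, 6914 to 7774 CPM in the batch 2 controls and 6109 to 12265 CPM in the batch 1 controls, so that the WD libraries lay above all 9. Lipa, the acid lipase that hydrolyses cholesteryl esters and triglyceride in lysosomes, measured 527, 645, 474, 356 and 365 CPM on the WD, 88.2, 93.2, 61.8, 106 and 99 CPM in batch 2 and 43, 97.9, 104 and 248 CPM in batch 1. No control reached the WD range (log2 fold change 2.40 ± 0.22, adjusted p = 9.78e-06). Ctss, the cysteine protease cathepsin S, ran from 641 to 1537 CPM on the WD and from 70.7 to 212 CPM in batch 2 (log2 fold change 2.95 ± 0.32, adjusted p = 3.38e-05), and control 4 of batch 1 lay in the WD range at 896 CPM. The protease gene Ctsa had a log2 fold change of 1.60 ± 0.19 (SE, adjusted p = 9.57e-05), but its row and that of Pltp, which overlaps it on the other strand, held nearly the same counts, so the 2 genes cannot be told apart.

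Genes that move cholesterol out of the lysosome and store it were among those called higher. Of 11 genes of cholesterol hydrolysis and efflux, 4 were called higher and 0 lower, with a median of 0.37 against batch 2 and 0.81 against batch 1. Nceh1, which hydrolyses cholesteryl esters in macrophages, measured 103, 64.8, 112, 212 and 71.1 CPM on the WD, 18.5, 11.4, 9.56, 13.3 and 7.56 CPM in batch 2 and 10.2, 30.3, 23.6 and 77.1 CPM in batch 1 (log2 fold change 3.22 ± 0.35, adjusted p = 3.59e-05). The WD libraries lay above all batch 2 controls, and control 4 of batch 1 was above WD 2 and 5. Soat1, which re-esterifies cholesterol for storage, had 51.8, 72.2, 63.3, 136 and 59.7 CPM on the WD and 12.2, 18.6, 10.6, 14.1 and 12.4 CPM in batch 2 (log2 fold change 2.50 ± 0.30, adjusted p = 0.000101). In batch 1 it had 38.4, 21.9, 26.8 and 70.7 CPM, with control 4 in the WD range. Npc2, the lysosomal cholesterol carrier, was far higher in WD 2 than elsewhere, at 6103 CPM against 1518 to 2617 CPM in the other 4 WD libraries and 1246 to 1499 CPM in batch 2 (log2 fold change 1.13 ± 0.29, adjusted p = 0.0277). In batch 1 Npc2 measured 2669, 1096, 815 and 1891 CPM, with controls 1 and 4 in the WD range. Its call was lost when any 1 of the 5 batch 2 controls was left out, with adjusted p from 0.0526 to 0.0756, and kept without WD 2.

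Promoter sequences are shown for genes of this group that hold the letters of a known binding motif, so that the regulatory sequence can be read beside the counts. They come from RefSeq (GRCm38.p6), end at the base before the gene start and are printed 5′ to 3′ on the gene's strand, with the motif in capitals. Of the genes tested, 9535 had such a window of 250 bases. The letters GAGGAAGT, the core bound by PU.1, the macrophage transcription factor encoded by Spi1, were searched on both strands and occur in 3.15% of the promoters of all genes tested, in 19 of 373 (5.09%) of those called higher and in 1 of 235 (0.426%) of those called lower. Among pan-macrophage markers 0 of 9 held the PU.1 letters, and among lipid-associated macrophage genes 3 of 12. The letters TCACGTGA, the palindromic site of TFEB and related factors that control lysosomal genes, occur in 1.81% of the promoters of all genes tested, in 4 of 28 (14.3%) lysosomal genes, in 6 of 373 (1.61%) genes called higher and in 4 of 235 (1.7%) called lower. The letters TTGCGCAA, a palindromic C/EBP site, occur in 0.325% of promoters of all genes tested, and Lep is among them. They occur in 2 of 373 (0.536%) genes called higher and in 0 of 235 called lower. The ERR letters TCAAGGTCA were also searched and occur in 0.294% of all genes tested. They were found in 3 of 373 (0.804%) genes called higher and in 0 of 235 called lower, and no such window is shown. A match is a description of these letters and not a site shown to be used. The windows shown are those of Nceh1, Hpgds and Fcgr4 for PU.1, Ctsd for the TFEB letters and Lep for C/EBP, where Ctsd was chosen after its values were seen.
Nceh1 (chr3:27182754-27183003, plus strand): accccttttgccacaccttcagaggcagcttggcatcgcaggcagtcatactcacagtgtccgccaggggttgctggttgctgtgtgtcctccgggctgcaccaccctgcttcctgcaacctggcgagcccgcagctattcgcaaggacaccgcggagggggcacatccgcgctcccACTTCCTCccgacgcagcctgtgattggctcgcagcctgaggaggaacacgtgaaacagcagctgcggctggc
Hpgds (chr6:65144731-65144980, minus strand): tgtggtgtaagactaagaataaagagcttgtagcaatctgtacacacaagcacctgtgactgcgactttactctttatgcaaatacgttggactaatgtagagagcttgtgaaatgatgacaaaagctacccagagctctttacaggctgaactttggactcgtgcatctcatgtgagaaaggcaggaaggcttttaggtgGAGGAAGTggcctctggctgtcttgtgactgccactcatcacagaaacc
Fcgr4 (chr1:171018676-171018925, plus strand): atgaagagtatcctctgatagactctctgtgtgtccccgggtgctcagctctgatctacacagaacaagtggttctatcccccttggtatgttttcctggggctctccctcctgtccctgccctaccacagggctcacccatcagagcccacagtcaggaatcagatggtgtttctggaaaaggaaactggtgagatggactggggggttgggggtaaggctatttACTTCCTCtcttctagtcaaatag
Ctsd (chr7:142387828-142388077, minus strand): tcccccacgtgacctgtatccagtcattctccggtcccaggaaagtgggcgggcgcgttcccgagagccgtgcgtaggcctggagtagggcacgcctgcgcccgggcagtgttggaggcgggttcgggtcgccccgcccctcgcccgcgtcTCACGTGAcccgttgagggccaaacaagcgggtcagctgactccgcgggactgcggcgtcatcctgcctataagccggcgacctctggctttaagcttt
Lep (chr6:29059971-29060220, plus strand): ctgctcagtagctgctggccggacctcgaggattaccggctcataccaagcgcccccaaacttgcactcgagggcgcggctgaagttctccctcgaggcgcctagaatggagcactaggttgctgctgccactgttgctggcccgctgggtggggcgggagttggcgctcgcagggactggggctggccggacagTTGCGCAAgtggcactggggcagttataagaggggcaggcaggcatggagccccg
In Nceh1 and Fcgr4 the PU.1 letters lie on the opposite strand and read as their reverse complement, ACTTCCTC, and they begin 73 and 24 bases before the start, against 49 bases in Hpgds. The Ctsd letters begin 99 and the Lep letters 55 bases before the start. Ctsd, the aspartic protease cathepsin D, had a mean of 2771 CPM on the WD and 1047 CPM in batch 2 (log2 fold change 1.41 ± 0.24, adjusted p = 0.00136) and lay above all 9 controls. Fcgr4, an activating receptor for IgG, measured 18.7, 19.5, 38.6, 15.9 and 3.76 CPM on the WD and 0.715, 0, 0, 3.60 and 0 CPM in batch 2 (log2 fold change 4.44 ± 1.17, adjusted p = 0.0298). Controls 1 and 3 of batch 1 held 15.9 and 8.86 CPM of it, inside the WD range. The Fcgr4 call was lost without WD 1 or 3 or without batch 2 control 1, 2, 3 or 5, with adjusted p from 0.0546 to 0.110 in edgeR.

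Receptors for antibody and complement, with their signalling partners, were among the genes called higher. Of 13 genes for Fc receptors and their ITAM adaptors, 9 were called higher and 0 lower, with medians of 1.91 against batch 2 and 0.98 against batch 1. Fcgr3, a receptor for IgG, ran from 153 to 345 CPM on the WD and from 57.7 to 91 CPM in batch 2 (log2 fold change 1.61 ± 0.23, adjusted p = 0.000422), and its signalling chain Fcer1g from 93.9 to 152 and from 19.5 to 60.4 CPM (log2 fold change 1.93 ± 0.29, adjusted p = 0.000659). Neither overlapped between these groups, and control 4 of batch 1 lay in the WD range of both. Of 17 complement genes, 8 were called higher and 1 lower, with medians of 0.86 and 1.04. The subunit genes of C1q, which opens the classical pathway and is made by macrophages, lay above all 9 controls. C1qa measured 443, 710.2, 262, 308 and 304 CPM on the WD against 109, 101, 64.9, 130.2 and 118 CPM in batch 2 and 84.7, 208, 109 and 191 CPM in batch 1 (log2 fold change 1.96 ± 0.28, adjusted p = 0.000374). C1qb measured 570.3, 802, 387, 410.5 and 344 CPM on the WD against 125, 109, 73.3, 183 and 119 CPM in batch 2 and 122, 191, 171 and 264 CPM in batch 1 (log2 fold change 2.05 ± 0.27, adjusted p = 0.000225). C3ar1, the receptor for the C3a fragment, had 377, 334, 237, 313 and 239 CPM on the WD against 37.7, 32.4, 28.4, 42.4 and 44.3 CPM in batch 2 (log2 fold change 3.02 ± 0.21, adjusted p = 1.04e-06), the second lowest adjusted p of all genes. In batch 1 it measured 14.8, 47.2, 26 and 365 CPM, with control 4 in the WD range and the other 3 below it. The gene of this list that was lower was Cfd, which encodes adipsin, the factor D made by adipocytes.

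The phagocyte NADPH oxidase, which makes superoxide in the phagosome, had 4 of its 6 subunit genes called higher and 0 lower, with medians of 2.01 against batch 2 and 1.45 against batch 1. Its membrane subunits lay above all 9 controls. Cybb measured 209, 286, 178, 234 and 182 CPM on the WD, 51.5, 43.6, 29.6, 59.7 and 42.9 CPM in batch 2 and 4.10, 31.6, 56.6 and 163 CPM in batch 1 (log2 fold change 2.26 ± 0.23, adjusted p = 1.57e-05). Cyba measured 58.3, 81.3, 71.3, 38.5 and 90.7 CPM on the WD, 18, 11.7, 10.4, 32.2 and 15.5 CPM in batch 2 and 3.80, 36, 28.3 and 27.7 CPM in batch 1 (log2 fold change 1.95 ± 0.34, adjusted p = 0.00169). Ncf1, a cytosolic subunit, ran from 51.5 to 91.1 CPM on the WD and from 15.1 to 42.4 CPM in batch 2 (log2 fold change 1.43 ± 0.29, adjusted p = 0.00576), and control 4 of batch 1 lay just above the WD range at 91.5 CPM.

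Genes of antigen presentation were among those called higher. Of 9 MHC class II genes tested, 6 were called higher and 0 lower, with medians of 1.64 against batch 2 and 1.48 against batch 1, and their summed level was 2522 to 3942 CPM on the WD, 634 to 1469.8 CPM in batch 2 and 394 to 2572 CPM in batch 1, where control 4 lay in the WD range. H2-Eb1, a class II beta chain, measured 298, 414, 399, 315 and 306 CPM on the WD, 128, 96.5, 87.1, 198 and 106 CPM in batch 2 and 27, 30.9, 83.4 and 176 CPM in batch 1, without overlap with any control (log2 fold change 1.49 ± 0.23, adjusted p = 0.000746). H2-DMb1, which loads peptides onto class II, ran from 79.4 to 155 CPM on the WD and from 17.4 to 34.3 CPM in batch 2 (log2 fold change 2.40 ± 0.27, adjusted p = 4.2e-05), with control 4 of batch 1 at 139 CPM. The invariant chain gene Cd74 had 527, 888, 557, 443 and 408 CPM on the WD and 229, 136, 110.0, 265 and 199.96 CPM in batch 2 (log2 fold change 1.59 ± 0.27, adjusted p = 0.00139). In batch 1 it had 63, 83.1, 151 and 585 CPM, with control 4 in the WD range. Of 12 class I and immunoproteasome genes, 3 were called higher and 0 lower, with medians of 0.56 and 0.89. Among them H2-K1 measured 988, 571, 1293, 1245 and 1203 CPM on the WD and 505, 552, 422, 480.5 and 389.9 CPM in batch 2 (log2 fold change 1.18 ± 0.22, adjusted p = 0.00284), where WD 2 was only just above the highest control of batch 2. In batch 1 H2-K1 measured 306, 435, 569 and 878 CPM, with control 4 in the WD range. Of 21 interferon-stimulated genes, 1 was called higher and 0 lower, against 3.93% and 2.48% of all genes tested, with medians of 0.64 and 1.14. At an unadjusted p under 0.05, 5 were higher, where 17.7% of all genes tested passed in either direction. The gene called higher, Trim30a, measured 52.3, 36.6, 62.8, 43.6 and 59.5 CPM on the WD and lay above all 9 controls, of which the highest stood at 31.4 CPM (log2 fold change 1.396 ± 0.30, adjusted p = 0.00942).

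Most secreted inflammatory genes tested were not called. Of 16 chemokines tested, 3 were called higher, against 3.93% of all genes tested, and 0 lower. Their medians were 1.25 against batch 2 and 0.66 against batch 1. Of the 4 cytokines on which the study centred, Ccl9, a macrophage chemokine, measured 362, 516, 198, 318 and 217 CPM on the WD, 127, 76.6, 49.7, 153 and 89.3 CPM in batch 2 and 40.6, 271, 130.5 and 264 CPM in batch 1. The WD libraries lay above batch 2, and batch 1 controls 2 and 4 lay in the WD range (log2 fold change 1.70 ± 0.31, adjusted p = 0.00272). Ccl8, an attractant of monocytes, measured 50.9, 35.1, 81.2, 10.54 and 30.3 CPM on the WD and 16.3, 1.35, 15.1, 22.5 and 15 CPM in batch 2, with WD 4 inside the control range (log2 fold change 1.57 ± 0.57, adjusted p = 0.135). Cxcl13, an attractant of B cells, measured 31.2, 12.7, 17.3, 31.9 and 4.18 CPM on the WD and 8.15, 0, 4.93, 3.37 and 3.43 CPM in batch 2, with WD 5 inside the control range (log2 fold change 2.28 ± 0.81, adjusted p = 0.123). Il18, an inflammasome cytokine, ran from 10.53 to 31.2 CPM on the WD and from 7.06 to 15.2 CPM in batch 2 (log2 fold change 0.60 ± 0.45, adjusted p = 0.584). In batch 1 it measured 0, 0, 10.4 and 0.0754 CPM, with a log2 fold change of 2.55 against that batch, also not called. In two-sided exact permutation tests of log2(CPM + 1), adjusted over the 4, the differences were 1.71 for Ccl9 (adjusted exact p = 0.0317), 2.07 for Cxcl13 (adjusted exact p = 0.0476), 1.56 for Ccl8 (adjusted exact p = 0.0847) and 0.48 for Il18 (adjusted exact p = 0.19), where 5 against 5 libraries allow an unadjusted p of 0.00794 at best. Ccl9 passed the threshold in both tests, and Cxcl13 only in the exact test. The 2 adjusted values are unlike, since the exact p was adjusted over 4 genes and the edgeR p over all 12070 tested. Unadjusted, Cxcl13 had p = 0.0126 in edgeR and p = 0.0238 in the exact test.

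The classical inflammatory cytokines were hardly present. Il6 had 0 counts in all 14 libraries and Tnf only 0.732 CPM in WD 3, and Stat3, which acts downstream of Il6, did not differ past the threshold, at 39.6 to 117 CPM on the WD and 73.9 to 107 CPM in batch 2 (log2 fold change -0.25 ± 0.26, adjusted p = 0.735). The study measured secreted IL-6 and phosphorylated STAT3 protein in cultured BV2 microglia, which fat pad RNA does not measure. Of 8 interleukin genes tested, 1 was called higher, Il1rn, the natural antagonist of the interleukin 1 receptor, with 23.7, 25.1, 21.4, 17.6 and 9.10 CPM on the WD against 3.79, 1.55, 1.52, 5.45 and 0.101 CPM in batch 2 (log2 fold change 2.96 ± 0.71, adjusted p = 0.0176). In batch 1 Il1rn measured 0, 0, 3.48 and 14.3 CPM, with control 4 in the WD range. Its call was lost without WD 1 or batch 2 control 3, with adjusted p of 0.0508 to 0.0526 for Il1rn. Cxcl16, a chemokine that also binds oxidised lipoprotein, measured 29.4, 42.1, 38.6, 47.3 and 17.1 CPM on the WD and 15.9, 7.44, 10.7, 12.2 and 3.73 CPM in batch 2 (log2 fold change 1.80 ± 0.41, adjusted p = 0.0119). In batch 1 Cxcl16 measured 41.3, 0.169, 17.7 and 14.1 CPM, with controls 1 and 3 in the WD range. Of 16 Toll-like receptors and coreceptors, 0 were called by edgeR, although the median log2 fold change was 1.36 against batch 2 and 1.59 against batch 1, with 9 higher at an unadjusted p under 0.05, 4 called higher by DESeq2 and 2 by limma-voom. Among all genes tested, 17.7% passed that unadjusted cut in either direction.

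Markers of other immune cells were sparse. Of 18 T and B lymphocyte genes, 4 passed the filter and 1 was called higher, Il7r, the receptor for interleukin 7, at 90.3, 113, 84.9, 115 and 40.4 CPM on the WD and 5.29, 3.48, 9.48, 6.60 and 2.62 CPM in batch 2 (log2 fold change 4.01 ± 0.39, adjusted p = 1.26e-05), and in batch 1 at 7.12, 9.06, 9.53 and 87.9 CPM. The summed level of the 15 lymphocyte genes in the table was 74.5 to 210 CPM on the WD, 12.6 to 28.1 CPM in batch 2 and 16 to 133 CPM in batch 1. Most of the WD sums was Il7r itself, except in WD 3, where Il7r made 84.9 of 210 CPM. The defining T cell genes Cd3e and Cd3g were each at 0 in 3 of the 5 WD libraries. Their part in the other differences was not tested. Of 12 genes of resident perivascular macrophages, 3 were called higher and 0 lower, with medians of 0.09 against batch 2 and 0.27 against batch 1. Clec10a, a galactose lectin, measured 212, 81.6, 306, 199.9 and 150.2 CPM on the WD and 69.3, 76.4, 62.6, 82.1 and 38.2 CPM in batch 2 (log2 fold change 1.53 ± 0.30, adjusted p = 0.00454), and the mannose receptor Mrc1 173, 83.2, 210.2, 212 and 173 and 94, 70.8, 47.6, 103 and 57.5 CPM (log2 fold change 1.19 ± 0.27, adjusted p = 0.0131), with WD 2 inside the control range in both. Batch 1 overlapped with the WD in both, at 13.2, 220, 88.6 and 175 CPM for Clec10a and 32.3, 188, 107 and 242 CPM for Mrc1. Lyve1, the hyaluronan receptor of these cells, went the other way without passing the edgeR test, at 128, 33, 129, 30.9 and 154 CPM on the WD and 188, 232, 133, 360.2 and 344 CPM in batch 2 (log2 fold change -1.404 ± 0.42, adjusted p = 0.0592). DESeq2 and limma-voom each called 1 gene of the resident macrophage list lower.

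Genes of dividing cells and of the extracellular matrix were also among those called higher. Of 22 proliferation genes tested, 6 were called higher and 0 lower, with medians of 1.89 against batch 2 and 1.26 against batch 1. Mki67, a protein of dividing nuclei, measured 29.7, 44, 68.5, 52 and 26.1 CPM on the WD, 3.43, 2.51, 4.70, 4.99 and 1.41 CPM in batch 2 and 4.10, 7.03, 4.47 and 51.5 CPM in batch 1 (log2 fold change 3.68 ± 0.42, adjusted p = 6.28e-05). Control 4 of batch 1 lay within the WD range, and the other 8 controls below it. Top2a, the topoisomerase of dividing cells, ran from 28.8 to 79.2 CPM on the WD, above all 9 controls, which reached 19.2 CPM (log2 fold change 2.17 ± 0.36, adjusted p = 0.0012). Of 33 collagen and matrix genes, 8 were called higher and 1 lower, with medians of 0.68 against batch 2 and 0.36 against batch 1. The fibrillar collagens Col1a1 and Col3a1 had log2 fold changes of 1.47 ± 0.27 (SE, adjusted p = 0.00305) and 1.26 ± 0.25 (SE, adjusted p = 0.00461), and control 4 of batch 1 was above every WD library in Col1a1, at 447 CPM against 161 to 231 CPM. Lox, which cross-links collagen, measured 167, 285, 117, 143 and 117 CPM on the WD, 42.1, 31.9, 52.7, 40.6 and 31.7 CPM in batch 2 and 72, 207, 109 and 171 CPM in batch 1, so that it stood apart from batch 2 (log2 fold change 2.06 ± 0.27, adjusted p = 0.000182) but overlapped with batch 1. The proteoglycan gene Bgn lay above all 9 controls, at 168 to 479.6 CPM against at most 150.4 CPM (log2 fold change 1.67 ± 0.27, adjusted p = 0.00108).

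Iron and stress genes gave single members rather than whole lists. Of 12 iron handling genes, 4 were called higher and 1 lower, with medians of -0.11 against batch 2 and -0.06 against batch 1. Ftl1, the ferritin light chain that stores iron, measured 531, 884, 844, 549.8 and 658 CPM on the WD, 301, 259.7, 329.9, 273 and 385 CPM in batch 2 and 283, 466, 219 and 435 CPM in batch 1, without overlap with any control (log2 fold change 1.16 ± 0.20, adjusted p = 0.00147). Slc11a1, the iron and manganese exporter of phagosomes, measured 47.2, 2.87, 42.9, 44.8 and 35.4 CPM on the WD, where WD 2 was far below the others and below all but 1 of the batch 2 controls at 8.29, 4.35, 8.19, 8.44 and 2.62 CPM (log2 fold change 2.44 ± 0.57, adjusted p = 0.0157). The Slc11a1 call was lost with limma-voom (adjusted p = 0.208) and in the fit over all 14 libraries (adjusted p = 0.138). Trf, the plasma iron carrier transferrin, was the gene called lower, at 821 to 1613 against 2069 to 3040.4 CPM (log2 fold change -0.90 ± 0.20, adjusted p = 0.0117). The batch 1 controls spanned the WD range of Trf, at 324, 2405, 2025 and 1007 CPM, with a log2 fold change of -0.18 against that batch. Atf3, a stress-induced transcription factor, measured 47, 84.6, 56.3, 53.2 and 59.1 CPM on the WD, 10.4, 3.09, 7.96, 6.83 and 21.2 CPM in batch 2 and 0.0975, 3.73, 2.65 and 37 CPM in batch 1 (log2 fold change 2.60 ± 0.41, adjusted p = 0.000946). Every WD library lay above every control. It was 1 of 17 immediate early genes called higher, with 0 lower and medians of 0.41 against batch 2 and -0.88 against batch 1.

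The genes with the largest differences include several outside these groups. Tph2, a tryptophan hydroxylase, measured 28.1, 33.4, 22.1, 58.2 and 25.7 CPM on the WD and at most 0.997 CPM in batch 2 (log2 fold change 7.15 ± 0.91, adjusted p = 0.000155), and in batch 1 it was at 0 except in control 4, at 29 CPM. Trdn, a protein of the calcium release complex of muscle, measured 86, 103, 208, 114 and 224 CPM on the WD and 0, 1.45, 5.38, 6.75 and 0 CPM in batch 2 (log2 fold change 5.73 ± 0.84, adjusted p = 0.000523), with 1.37, 14.5, 1.57 and 100.4 CPM in batch 1. Of 6 skeletal muscle genes tested, 0 were called by edgeR, 0 at an unadjusted p under 0.05 and 0 by DESeq2 or limma-voom, and the muscle gene Ckm was at 0 in 4 of 5 WD libraries. Ubd, a ubiquitin-like protein of immune cells, had 155, 154, 200.4, 341 and 298 CPM on the WD against 9.79, 4.83, 14.3, 8.36 and 1.01 CPM in batch 2 (log2 fold change 4.90 ± 0.50, adjusted p = 1.99e-05), and 0, 0.0847, 7.62 and 212 CPM in batch 1. Wisp2, a secreted protein of adipose progenitors, measured 86.3, 45.2, 48.6, 37.1 and 31.8 CPM on the WD, 2.64, 0, 0, 3.60 and 0 CPM in batch 2 and 10.2, 15.8, 11.1 and 0 CPM in batch 1 (log2 fold change 5.27 ± 0.95, adjusted p = 0.00241), above all 9 controls. Slamf7, a receptor of macrophages and lymphocytes, measured 23.9, 18.6, 23.8, 67.7 and 27.3 CPM on the WD and 2.64, 2.80, 0.455, 1.38 and 0 CPM in batch 2 (log2 fold change 4.46 ± 0.75, adjusted p = 0.00135), and 1.95, 4.83, 2.65 and 55.4 CPM in batch 1. Rgs1, a brake on chemokine receptor signalling, measured 22, 17.9, 28.3, 136 and 20.5 CPM on the WD and 3.43, 0, 3.11, 3.53 and 1.01 CPM in batch 2 (log2 fold change 4.32 ± 0.81, adjusted p = 0.00305), with WD 4 far above the other WD libraries, and 11.5, 0, 6.46 and 57.2 CPM in batch 1. For Tph2, Trdn, Ubd, Slamf7 and Rgs1, control 4 of batch 1 was the control that lay in the WD range.

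Most adipocyte identity genes were called lower against batch 2. Of 17 adipocyte identity genes, 12 were called lower and 1 higher. Their median was -0.98 against batch 2 and 0.01 against batch 1 on the log2 scale. With control 1 of batch 1 left out, the median against batch 1 was -0.36, and without control 2, 3 or 4 it was 0.26, 0.23 or 0.05. The batch 2 controls themselves stood above the batch 1 controls by a median of 1.23. The summed level was 30706 to 43544 CPM on the WD, 75288 to 87639 CPM in batch 2 and 6590 to 60303 CPM in batch 1, so the WD range lay below every batch 2 control and overlapped with batch 1. Over the same groups the summed pan-macrophage markers were highest on the WD, as given above, and their part in the lower share of adipocyte transcripts was not tested. Adipoq, which encodes the hormone adiponectin, measured 5469, 4528, 4292, 3603 and 5966 CPM on the WD and 11407, 16902, 11445, 11478 and 11829 CPM in batch 2 (log2 fold change -1.401 ± 0.19, adjusted p = 0.000306). In batch 1 it measured 796, 7027, 7346 and 6246 CPM, where controls 2 to 4 lay above every WD library and control 1, the library with epididymis transcripts, lay far below. Car3, a carbonic anhydrase abundant in fat, measured 3583, 3056, 2934, 3350.5 and 4328 CPM on the WD, 16644, 15798, 19603, 15426 and 14610.0 CPM in batch 2 and 482, 7215, 8213 and 8933 CPM in batch 1 (log2 fold change -2.25 ± 0.18, adjusted p = 3.57e-06), again with only control 1 of batch 1 below the WD range. Cfd (adipsin) measured 1481, 2072, 1500.2, 784 and 1747 CPM on the WD, 11862, 15829, 10203, 8343 and 17488 CPM in batch 2 and 1134, 5824, 8202 and 801 CPM in batch 1, with controls 1 and 4 of batch 1 in the WD range (log2 fold change -3.07 ± 0.28, adjusted p = 9.78e-06). The hormone gene Retn (resistin) ran from 442 to 1103 CPM on the WD and from 2155 to 3928 CPM in batch 2 (log2 fold change -1.82 ± 0.24, adjusted p = 0.000222). In batch 1 Retn measured 301, 3425, 2035 and 436 CPM, which spanned the WD range.

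Among called genes with a mean of at least 10 CPM, the largest fall was in Cyp2e1 (chr7:140763832-140774977, mm10), a cytochrome P450 that oxidises ethanol and fatty acids. It measured 14.9, 2.02, 7.02, 7.16 and 63.9 CPM on the WD, 1352, 2333, 1512, 1248 and 2188 CPM in batch 2 and 75.9, 684, 851 and 178 CPM in batch 1. All 5 WD libraries lay below all 9 controls, and the log2 fold change was -6.50 ± 0.75 (SE, adjusted p = 6.28e-05) against batch 2 and -4.56 against batch 1. Fam13a, a gene tied to fat distribution, measured 42.9, 83.4, 33.7, 27.8 and 43.5 CPM on the WD, 426, 467, 368, 429 and 550.2 CPM in batch 2 and 58.3, 409, 419 and 87.4 CPM in batch 1 (log2 fold change -3.28 ± 0.28, adjusted p = 6.13e-06). Controls 2 and 3 of batch 1 lay within the range of batch 2, control 1 lay within the WD range and control 4 just above it. Gpt2, the mitochondrial alanine aminotransferase, measured 18, 25.2, 15.8, 12.7 and 23.2 CPM on the WD and 138, 162, 114, 101 and 102 CPM in batch 2 (log2 fold change -2.70 ± 0.25, adjusted p = 1.05e-05), and 24.8, 52.8, 109.9 and 65.9 CPM in batch 1, where only control 1 was within the WD range. Gsta3, a glutathione transferase, lay below all 9 controls, at 30.3, 18.5, 28.3, 19.7 and 38.5 CPM on the WD, 129, 119, 179.8, 103 and 141 CPM in batch 2 and 44.7, 42.7, 83.1 and 90.5 CPM in batch 1 (log2 fold change -2.31 ± 0.25, adjusted p = 3.38e-05). The carboxylesterases Ces1d and Ces1f, which hydrolyse lipid esters, had log2 fold changes of -2.97 ± 0.41 (SE, adjusted p = 0.000294) and -2.74 ± 0.40 (SE, adjusted p = 0.00049). Batch 1 overlapped with the WD in both, at 11.6, 160, 297 and 35.1 CPM for Ces1d and 1.85, 23.8, 44.6 and 45.2 CPM for Ces1f. Agt, the precursor of angiotensin, ran from 3.78 to 31.6 CPM on the WD and from 73.5 to 161 CPM in batch 2 (log2 fold change -2.78 ± 0.42, adjusted p = 0.000666). In batch 1 Agt measured 40.1, 135, 135 and 9.05 CPM, with control 4 in the WD range.

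**Figure D3:**
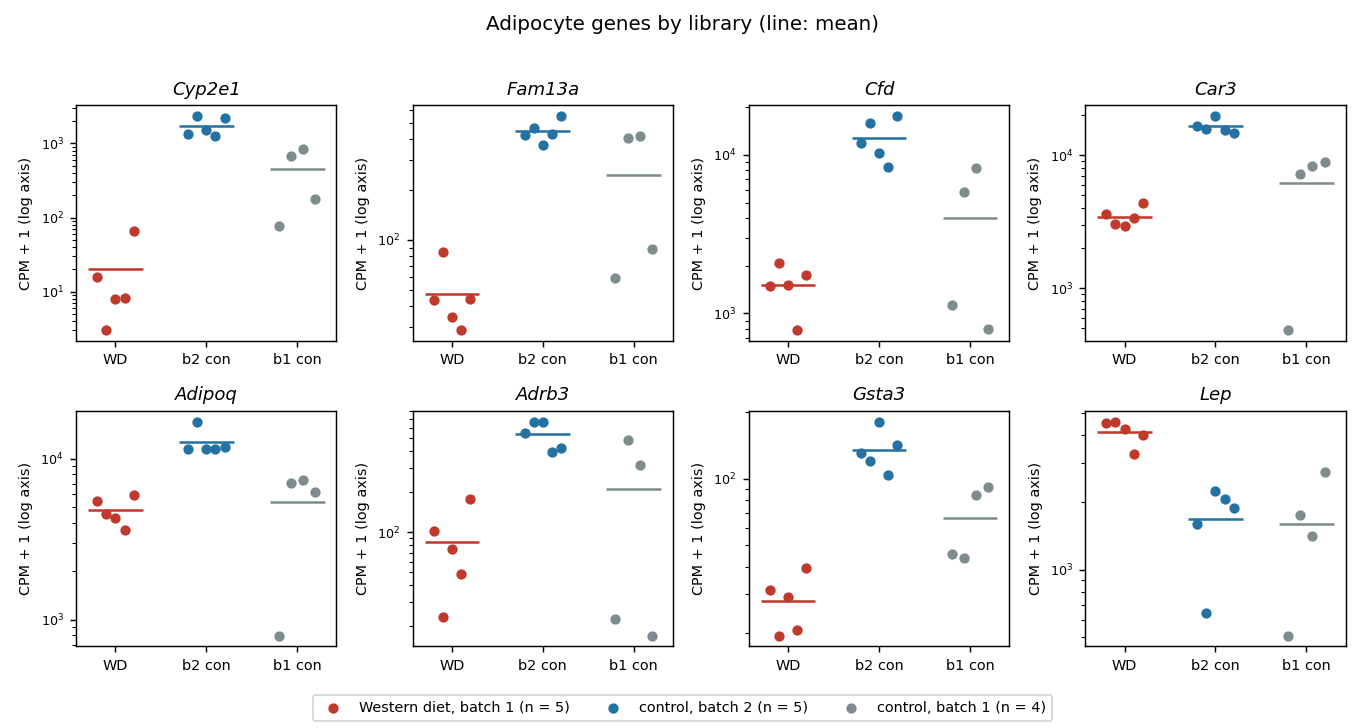
CPM + 1 on a log axis for 8 genes of adipocytes, with 1 point per library and a line at the group mean (WD, n = 5; batch 2 controls, n = 5; batch 1 controls, n = 4). All 5 WD libraries lie below all 5 batch 2 controls in 7 genes and above them in Lep, and Cyp2e1 and Gsta3 lie below all 9 controls.

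A few adipocyte genes went up against this trend. Lep, which encodes the satiety hormone leptin, measured 4541, 4581, 4269.7, 3280.2 and 4008 CPM on the WD, 1601, 639, 2256, 2082 and 1883 CPM in batch 2 and 507, 1759, 1409 and 2740.5 CPM in batch 1. The WD libraries lay above all 9 controls, with log2 fold changes of 1.29 ± 0.27 (SE, adjusted p = 0.00611) against batch 2 and 1.38 against batch 1. Plin2, a coat protein of lipid droplets in many cell types, measured 1240.0, 2217, 1022, 1229 and 855 CPM on the WD, 303, 413, 384, 374 and 567 CPM in batch 2 and 134, 726, 419 and 648 CPM in batch 1, also above all 9 controls (log2 fold change 1.69 ± 0.25, adjusted p = 0.000611). Scd1, the desaturase that makes monounsaturated fatty acids, measured 18416, 25375, 14900.3, 12934 and 16523 CPM on the WD and 9356, 4598, 8306, 5473 and 12996 CPM in batch 2, where WD 4 was just below control 5 (log2 fold change 1.12 ± 0.27, adjusted p = 0.0189). The Scd1 call was lost without batch 2 control 3 or 4, with adjusted p of 0.0520 to 0.0536. The adipocyte droplet proteins moved in the opposite direction to Plin2, with 329, 249, 300.2, 244 and 388 CPM of Plin1 on the WD and 780.5, 707, 727, 590.3 and 641 CPM in batch 2 (log2 fold change -1.19 ± 0.18, adjusted p = 0.000659), and a log2 fold change of -1.76 ± 0.23 (SE, adjusted p = 0.000206) for Plin4. Plin1 overlapped with batch 1, where it measured 35.7, 359.5, 386 and 206 CPM. Plin4 did too, at 92.5, 1002, 1218 and 444 CPM in batch 1, and its log2 fold change against that batch was -0.13. Plin4 overlaps another gene on the opposite strand, and reads of the pair may be shared.

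Lipid synthesis, storage and release genes were lower in part. Of 18 genes of lipolysis and lipid droplets, 8 were called lower and 1 higher, with medians of -0.77 against batch 2 and 0.14 against batch 1. Adrb3, the adipocyte receptor through which noradrenaline starts lipolysis, measured 100.4, 22.1, 73.3, 47.7 and 174 CPM on the WD, 546, 665, 663, 392.07 and 422 CPM in batch 2 and 21.3, 485, 314 and 15.8 CPM in batch 1 (log2 fold change -2.68 ± 0.41, adjusted p = 0.000659), with controls 1 and 4 of batch 1 below every WD library. Of 20 genes of fatty acid uptake and triglyceride synthesis, 5 were called lower and 0 higher, with medians of -0.59 and 0.27. Dgat2, which makes the last step to triglyceride, ran from 415 to 773 CPM on the WD and from 978 to 1219.9 CPM in batch 2 (log2 fold change -0.84 ± 0.20, adjusted p = 0.0191), but all 4 batch 1 controls were at or below 516 CPM, and its log2 fold change against batch 1 was 1.31. The Dgat2 call was lost without WD 3 or batch 2 control 3, with adjusted p of 0.0538 to 0.0567. The phosphatidate phosphatase gene Lpin1 (log2 fold change -1.23 ± 0.20, adjusted p = 0.0012) lay between 258 and 405 CPM on the WD and between 614 and 1073 CPM in batch 2. Of 16 de novo lipogenesis genes, 3 were called lower and 2 higher, with medians of -0.37 and -0.18. The median against batch 1 was above 0, at 0.09 to 0.32, with any 1 of its controls left out. Their summed level, mostly Scd1, was 14206 to 27960 CPM on the WD and 7188 to 15787 CPM in batch 2. The acetyl-CoA carboxylase genes Acaca and Acacb had log2 fold changes of -1.16 ± 0.21 (SE, adjusted p = 0.00241) and -1.32 ± 0.19 (SE, adjusted p = 0.000424), and Fasn, the fatty acid synthase, ran from 211 to 1243 CPM on the WD and from 316 to 767 CPM in batch 2 (log2 fold change -0.06 ± 0.42, adjusted p = 0.978). Thrsp, a lipogenic protein, measured 265, 535, 247, 209 and 531 CPM on the WD, 1072, 1075, 1155, 581 and 999 CPM in batch 2 and 1.17, 133, 213 and 181 CPM in batch 1 (log2 fold change -1.45 ± 0.28, adjusted p = 0.00432). Its WD libraries lay below all batch 2 controls, and 4 of them lay above all batch 1 controls.

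Some mitochondrial genes were called lower against batch 2. Most branched-chain amino acid genes were called, while most members of the other lists here did not pass the test. Of 23 genes of branched-chain amino acid catabolism, 13 were called lower and 1 higher, with medians of -1.003 against batch 2 and -0.13 against batch 1, and a summed level of 781 to 1256 CPM on the WD, 1724 to 2594 CPM in batch 2 and 557 to 1579 CPM in batch 1. Dbt, a subunit of the branched-chain ketoacid dehydrogenase, measured 47.2, 32.7, 51.9, 56.3 and 59.8 CPM on the WD and 106, 111, 111, 107 and 108 CPM in batch 2 (log2 fold change -1.13 ± 0.20, adjusted p = 0.00219), and 28, 126, 89.6 and 125 CPM in batch 1, with only control 1 of that batch in or under the WD range. Acadsb, which acts on the next intermediate, measured 119, 89.8, 116, 111 and 131 CPM on the WD, 207, 297, 215, 232 and 237 CPM in batch 2 and 63.7, 139, 119 and 139.8 CPM in batch 1 (log2 fold change -1.07 ± 0.18, adjusted p = 0.00139). Of 25 tricarboxylic acid cycle genes, 6 were called lower and 0 higher, with 24 below 0 and medians of -0.77 and 0.03. DESeq2 called 8 of them lower, and 19 were lower at an unadjusted p under 0.05 (17.7% of all genes in either direction). Pdhb, a pyruvate dehydrogenase subunit, measured 61.3, 54.8, 62.6, 90.03 and 87.5 CPM on the WD and 199.6, 143, 178, 140.3 and 181 CPM in batch 2 (log2 fold change -1.24 ± 0.21, adjusted p = 0.00125), and the succinate dehydrogenase gene Sdha 179 to 232 and 321 to 389 CPM (log2 fold change -0.82 ± 0.16, adjusted p = 0.00432). Of 71 oxidative phosphorylation subunits, 8 were called lower and 0 higher, with 68 below 0 and medians of -0.43 and 0.12. DESeq2 called 12 of them lower, and 29 were lower at an unadjusted p under 0.05. Uqcrc2, a core subunit of complex III, was the subunit below all 9 controls, at 216, 147, 185, 217 and 219.9 CPM on the WD and 228 to 328 CPM in batch 1 (log2 fold change -0.86 ± 0.17, adjusted p = 0.00561), and its row overlaps a gene on the opposite strand. Of 20 fatty acid oxidation genes, 4 were called lower and 2 higher, with medians of -0.46 and -0.01. For these lists the batch 2 controls exceeded the batch 1 controls by medians of 0.75, 0.65, 0.52 and 0.53.

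Of 21 genes of insulin signalling and glucose uptake, 10 were called lower and 0 higher, with medians of -0.47 against batch 2 and 0.02 against batch 1. Pik3r1, the regulatory subunit of phosphoinositide 3-kinase, measured 121, 199, 90.3, 126 and 165 CPM on the WD, 306, 359, 325, 367 and 526 CPM in batch 2 and 80.3, 215, 186 and 52.9 CPM in batch 1 (log2 fold change -1.42 ± 0.23, adjusted p = 0.0011), so that the WD libraries lay below batch 2 and inside batch 1. Tbc1d4, which holds back the glucose transporter until insulin acts, measured 18.1, 29.9, 31.6, 22.6 and 23.7 CPM on the WD and 55.2, 92.7, 68, 62 and 53.8 CPM in batch 2 (log2 fold change -1.39 ± 0.25, adjusted p = 0.00223). In batch 1 it measured 0.0975, 34.7, 62.6 and 0.151 CPM, and its log2 fold change against that batch was 0.05. Pde3b, through which insulin stops lipolysis, ran from 283 to 499 CPM on the WD and from 618 to 1144 CPM in batch 2 (log2 fold change -1.09 ± 0.22, adjusted p = 0.00503). Of 16 adipogenic transcription factors, 1 was called lower, Klf15, at 4.25, 2.77, 9.51, 11.8 and 13.5 CPM on the WD and 28.5, 21.5, 24, 27.1 and 33.2 CPM in batch 2 (log2 fold change -1.68 ± 0.44, adjusted p = 0.0281), whereas Pparg, the master regulator of adipocytes, was at 37.1, 29.2, 34.5, 72.2 and 25.1 and 80.2, 67.3, 72.4, 60.1 and 42.9 CPM (log2 fold change -0.70 ± 0.29, adjusted p = 0.204). The Klf15 call was lost without WD 1 or 3 or without batch 2 control 1, 3, 4 or 5, with adjusted p of 0.0570 to 0.0774. In batch 1 Klf15 measured 11.3, 17.2, 27.7 and 31.7 CPM, with control 1 in the WD range. Of 16 circadian clock genes, 15 had a fold change below 0, with medians of -0.79 against batch 2 and -0.43 against batch 1. With 1 batch 1 control left out, the latter ran from -0.40 to -0.26. A single member was called lower, Dbp, with 12.7, 14.2, 21.5, 23.9 and 19.3 CPM on the WD, 69.6, 50.2, 53, 62.7 and 60.2 CPM in batch 2 and 13.5, 9.82, 31.8 and 0 CPM in batch 1 (log2 fold change -1.69 ± 0.26, adjusted p = 0.000658). The batch 1 controls overlapped with the WD libraries, and Dbp overlaps another gene on the opposite strand.

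Smaller counts were found in further lists, where 3.93% of all genes tested were called higher and 2.48% lower. Of 14 adipokines tested, 6 were called lower and 1 higher, and of 9 chemokine receptors, 3 were called higher. Among 24 antioxidant and glutathione genes, 3 were called lower and 1 higher, and among 20 genes of endoplasmic reticulum stress, 1 was called lower and 2 higher. Adipose progenitor genes (15 tested) and glycolysis genes (15 tested) each had 1 member higher and 1 lower. Several gene lists gave no call by edgeR. These were 17 endothelial genes, 11 mesothelial genes, 4 neutrophil genes, 5 mast cell genes, 6 red blood cell genes, 22 cholesterol synthesis genes, 42 cytosolic ribosomal proteins, 14 hypoxia-responsive genes and 9 thermogenic adipocyte genes. At an unadjusted p under 0.05, 0 endothelial, 0 mesothelial and 0 red blood cell genes, 2 mast cell, 2 cholesterol synthesis, 11 ribosomal and 3 thermogenic genes were higher and 1 neutrophil and 2 hypoxia-responsive genes lower. Among all genes tested, 17.7% passed this unadjusted cut in either direction. DESeq2 called 2 ribosomal and 2 thermogenic genes higher and 1 hypoxia-responsive gene lower, and limma-voom called 2 hypoxia-responsive genes lower and 0 of the others. In the plot of list medians, the pan-macrophage and lipid-associated macrophage lists lie to the right for both control groups. The adipocyte identity, lipolysis, tricarboxylic acid cycle and oxidative phosphorylation lists lie to the left against batch 2 only. Without control 1 of batch 1 their medians against batch 1 were -0.36, -0.02, -0.13 and 0.11, and without control 4 they were 0.05, 0.16, -0.004 and 0.04. The branched-chain amino acid, de novo lipogenesis, adipogenic transcription factor and circadian clock lists lie to the left against both. So do the fatty acid oxidation, iron handling and antioxidant lists, with medians against batch 1 of -0.005, -0.06 and -0.03. With any 1 of the batch 1 controls left out, the de novo lipogenesis median against batch 1 was above 0, at 0.09 to 0.32.

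**Figure D4:**
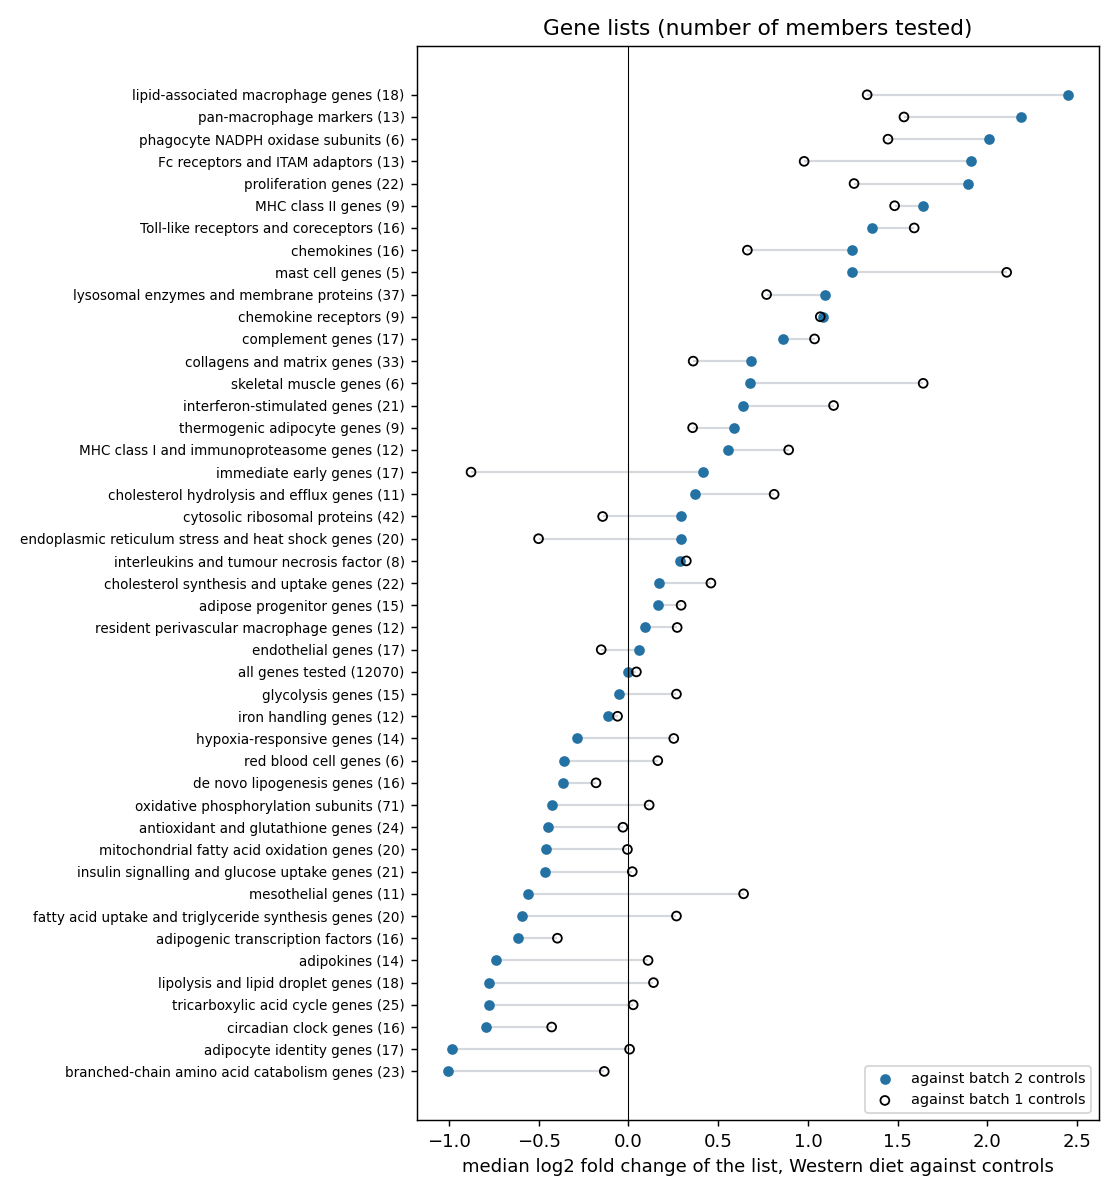
Median log2 fold change of each gene list with at least 5 members tested, for the 5 WD libraries against the 5 batch 2 controls (filled) and against the 4 batch 1 controls (open), which share the WD libraries. Lipid-associated macrophage genes stand at 2.45 and 1.33, adipocyte identity genes at -0.98 and 0.01, and all genes tested at 0.00 (-0.00342) and 0.05.

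Genes with opposite signs against the 2 control groups were few among those called higher. Among called genes with a mean of at least 10 CPM, 411 higher and 224 lower had the same sign against both control groups, and 31 higher and 69 lower had opposite signs. Rnf128, a ubiquitin ligase of T cells and epithelia, measured 159.7, 167, 100.4, 228 and 125 CPM on the WD, 4.43, 9.86, 5.61, 13.3 and 4.94 CPM in batch 2 (log2 fold change 4.36 ± 0.35, adjusted p = 3.57e-06) and 1889.8, 19.6, 143 and 204 CPM in batch 1. Basp1, a membrane-bound signalling protein, measured 129, 61.2, 124, 163 and 78.9 CPM on the WD, 24.2, 24.3, 22.7, 29.2 and 16.6 CPM in batch 2 (log2 fold change 2.25 ± 0.28, adjusted p = 0.000113) and 499, 35.4, 13.3 and 40.3 CPM in batch 1. In both, control 1 of batch 1, the library with epididymis transcripts, stood far above all other libraries, and its part in the opposite sign was not tested. Among the genes called lower, Bche, which encodes butyrylcholinesterase, measured 26.3, 25.5, 28.2, 25.3 and 29.2 CPM on the WD, 79.5, 135, 129.5, 99.7 and 76.6 CPM in batch 2 (log2 fold change -1.95 ± 0.22, adjusted p = 6.28e-05) and 4.49, 16.9, 48.5 and 18.5 CPM in batch 1, where 3 of the 4 controls lay below every WD library. Opn3, an opsin of fat and brain, measured 17.6, 46.6, 13.4, 36.3 and 25.9 CPM on the WD, 81.1, 122, 97.5, 91.8 and 128 CPM in batch 2 (log2 fold change -1.90 ± 0.31, adjusted p = 0.00118) and 0, 21.9, 49 and 0 CPM in batch 1, and its row overlaps another gene on the same strand.

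The position of single control libraries was counted over the called genes. For the 474 genes called higher, a batch 2 control reached the WD range in 15 to 48 of them (3.16% to 10.1%). Controls 1, 2 and 3 of batch 1 did so in 124, 123 and 86 genes, and control 4 in 275 (58.0%). For the 299 genes called lower, a batch 2 control reached down into the WD range in 2 to 16 of them (0.669% to 5.35%), controls 2 and 3 of batch 1 in 121 and 79, control 4 in 188 (62.9%) and control 1 in 243 (81.3%). The batch 2 values follow from the way the genes were called. Those of batch 1 did not enter the calls, and the reasons for the differences between its libraries were not tested.

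**Figure D5:**
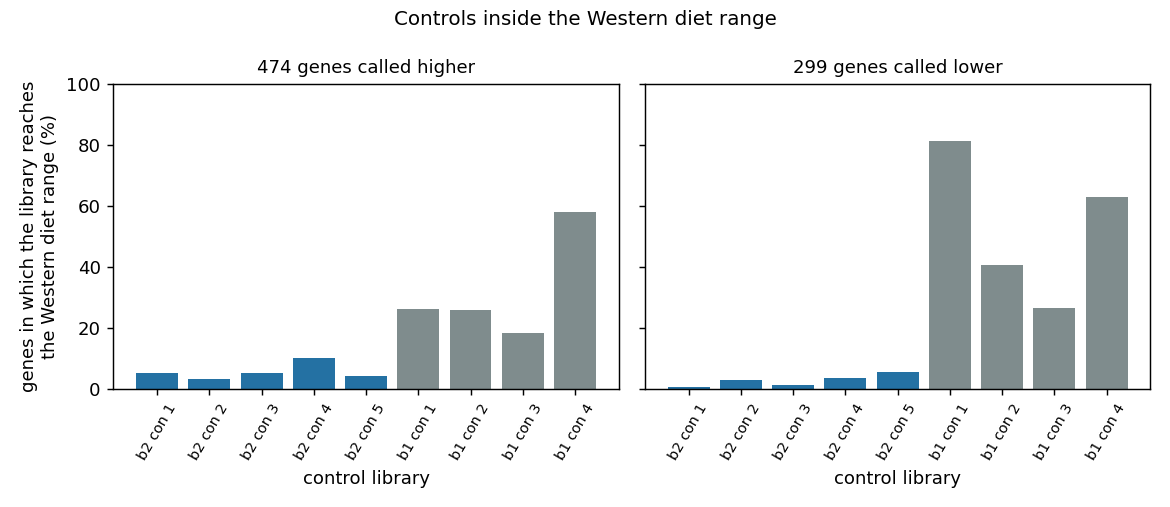
Percentage of the 474 genes called higher (left) and of the 299 genes called lower (right) in which each control library reaches the range of the 5 WD libraries (batch 2 controls in blue, batch 1 controls in grey). Control 4 of batch 1 does so in 58.0% and 62.9% of the genes, and control 1 of batch 1 in 81.3% of the genes called lower.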

How the data were processed

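Each of the 14 libraries was sequenced by QuantSeq 3′ mRNA-seq as single-end reads of 75 bases. Per the labels and the study's methods, the authors aligned reads with Bowtie2 and took counts from unique and multiple alignments with bedtools, and mm10 is the genome build named in the submitters' processing notes. The authors deposited raw counts per gene for 23282 genes, of which 5794 had no count, and log2 values of CPM (counts scaled to a common library size) after TMM in edgeR over all libraries. Versions, and whether counting used strand, were not given in the sources used here, and reads with multiple alignments can be shared between near-identical or overlapping genes. The deposited log2 values were only compared with the counts.

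From the counts, TMM factors, the filterByExpr filter and the quasi-likelihood test of edgeR 4.0.16 (R 4.3.3) were applied to the 10 libraries of the comparison, with Benjamini-Hochberg adjustment over all genes tested. Fold changes are log2 values, their standard error is the fold change divided by the square root of F, and CPM were computed from TMM factors over all 14 libraries. The 4 cytokines were also compared by exact permutation of log2(CPM + 1). Alternatives were other factors and filters, DESeq2 1.42.0, limma-voom (limma 3.58.1), other sets of libraries, a replicate block and leaving out each library. The p-values measure the spread between these libraries. The script was tested on simulated counts.

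The genes named were the 12 highest and 12 lowest log2 fold changes among called genes with a mean of at least 10 CPM and the same sign against batch 1, the 6 lowest adjusted p, the 4 members of each list with the lowest p, the 4 highest and 4 lowest genes of opposite sign, the cytokines of the study with Il6, Tnf and Stat3, and the defining genes of a list. Members and lists were chosen with earlier results of these data known. Gene list tests were not made, and promoters came from RefSeq (GRCm38.p6).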

Additional observations from a re-analysis of the deposited data

Results flagged for a closer look

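Of 355 groups of 4 or 5 libraries tested over 120 genes, 32 held a library whose gap to the nearest of the others was large for the range of its group (Dixon), where chance gives about 1 in 20, or 17.75. The batch 1 controls held 16 of these, with 8 in control 1 and 6 in control 4, the batch 2 controls 10 and the WD libraries 6. Values are log2(CPM + 1), and the causes were not tested.

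In the WD libraries, a high value stood apart for Il18 at 5.01 in WD 4, Rgs1 at 7.09 in WD 4 and Tnf at 0.792 in WD 3. In the WD libraries, a low value stood apart for Slc11a1 at 1.95 in WD 2, Mrc1 at 6.4 in WD 2 and Xbp1 at 4.55 in WD 2. In the batch 2 controls, a high value stood apart for Gpnmb at 4.96 in control 4, H2-DMb1 at 5.14 in control 4, Tph2 at 0.998 in control 4, Adipoq at 14 in control 2, Lpin1 at 10.1 in control 2 and Rgs7bp at 6.2 in control 3. In the batch 2 controls, a low value stood apart for Ccl8 at 1.23 in control 2, Lep at 9.32 in control 2, Ces1d at 7.52 in control 5 and Thrsp at 9.18 in control 4. In the batch 1 controls, a high value stood apart for Trem2 at 7.17 in control 4, Il7r at 6.47 in control 4, Il18 at 3.51 in control 3, Tph2 at 4.9 in control 4, D17H6S56E-5 at 8.33 in control 1 and Pfkfb1 at 3.91 in control 3. In the batch 1 controls, a low value stood apart for Cyba at 2.26 in control 1, Cxcl13 at 0 in control 4, Wisp2 at 0 in control 4, Car3 at 8.92 in control 1, Ppp1r1a at 1.12 in control 1 and Cish at 0 in control 4. Also in the batch 1 controls, a low value stood apart for Adipoq at 9.64 in control 1, Thrsp at 1.12 in control 1, Dgat2 at 1.9 in control 1 and Mccc1 at 1.65 in control 1.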

How the results depend on the processing

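Against batch 2, 729 to 846 genes were called with other scaling factors, other filters or limma-voom, and 1144 with DESeq2 (703 higher, 441 lower), against 773. Limma-voom put 54.7% of its calls higher, against 61.3%, and the median over all genes at -0.11. The fit over all 14 libraries called 100 higher and 40 lower, 139 of them by at least 2-fold, and 135 had the same direction against batch 1. With all 9 controls as a single group, 55 were higher and 12 lower. Leaving out 1 library gave 349 to 534 higher, 205 to 443 lower (both highest without WD 2), 500 to 688 changed by 2-fold and 493 to 811 with the same direction against batch 1, and 27 to 29 list medians above 0. Against batch 1, 1 gene was called by the fit over all libraries, 114 by DESeq2 and 0 to 48 with 1 library left out (48 without control 4). Between the control groups these counts were 1, 111 and 0 to 2. The number of the 4 cytokines passing the exact test ran from 0 to 2, with 0 without WD 1, 2 or 3 or any batch 2 control, where 4 against 5 libraries limit the p. No value past its threshold changed sign in these alternatives. For the named genes, 118 values lost and 30 gained their call across the alternatives with all libraries, and 126 and 17 with 1 library left out, and 1661 and 1917 kept direction and call. The cause was not tested.

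With the replicate number of the labels as a replicate block, 351 genes were higher and 243 lower, 594 in all, of which 558 were among the 773, and 495 had the same direction against batch 1. Slc11a1 lost its call there (adjusted p = 0.0656). Deviations of same-numbered libraries from their group means correlated at 0.055, -0.041, -0.014, 0.013 and -0.028, so the numbers did not pair the samples.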
